A study of Mus musculus with 30 samples.

Results

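The transcripts of 10 glycolytic enzymes were followed in mouse E14 embryonic stem cells in which cofactors of the cohesin complex were depleted. The enzymes, in pathway order, were Hk1, Hk2, Gpi1, Pfkl, Pfkp, Aldoa, Pgk1, Eno1, Pkm and Ldha. They were chosen by gene symbol, as 10 of the 55421 genes in the deposited count table. All 10 passed the filter on low counts, which kept 19868 genes. The series holds 30 messenger RNA libraries. They form 10 groups of 3, an untreated group and a group treated for 24 h from each of 5 lines.

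All 5 lines derive from male E14Tg2a cells of a 129 background, express the plant F-box protein Tir1, and are each represented by 1 named cell line. The TIR1 line carries Tir1 alone and is the control for auxin. The PDS5AB line carries an auxin-inducible degron (AID) on PDS5A and on PDS5B, and the WAPL line carries one on WAPL. These 3 lines received auxin at 500 µM. The PDS5AB-NIPBL line carries PDS5A-AID and PDS5B-AID together with NIPBL-FKBP and RAD21-Halo, and the WAPL-NIPBL line carries WAPL-AID with the same NIPBL-FKBP and RAD21-Halo. FKBP is a degron that responds to dTAG-13, and these last lines received auxin at 500 µM together with dTAG-13 at 500 nM. The HaloTag on the cohesin subunit RAD21 was present in their untreated cells too. WAPL releases cohesin from chromatin, PDS5A and PDS5B regulate its release and its acetylation, and NIPBL stimulates its loop extrusion. Culture medium contained LIF and the inhibitors PD0325901 and CHIR-99021 in serum.

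Glycolysis converts glucose to pyruvate in the cytosol and yields ATP without oxygen, and lactate dehydrogenase then reduces pyruvate to lactate. Mouse embryonic stem cells in culture use it at a high rate beside oxidative phosphorylation, and many of its genes are textbook targets of the hypoxia-inducible factors (HIF) and of MYC. Hexokinase, phosphofructokinase and pyruvate kinase catalyse the steps that are practically irreversible and regulated. Several steps have more than 1 gene, so the isozyme that is expressed can differ between cell types.

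Promoter windows from RefSeq on GRCm38.p6, from 250 bases before to 50 bases after an annotated start, were found for 10 of 10 members, with 17 windows in all. The windows printed here are those of Hk1, which had 2 annotated starts and rose with treatment in the 4 degron lines, and of Hk2, Pfkp and Ldha, which fell in 1 or more of those lines. Of the 2 Ldha windows, the upstream one is printed because it held more of the motif searched. Capitals mark the core of the HIF response element, searched as ACGTG and GCGTG on both strands, so that CACGT and CACGC are the same motifs on the other strand. Each sequence is written 5′ to 3′ on the strand of the gene.
Hk1, upstream start, chr10:62379859-62380158, minus strand: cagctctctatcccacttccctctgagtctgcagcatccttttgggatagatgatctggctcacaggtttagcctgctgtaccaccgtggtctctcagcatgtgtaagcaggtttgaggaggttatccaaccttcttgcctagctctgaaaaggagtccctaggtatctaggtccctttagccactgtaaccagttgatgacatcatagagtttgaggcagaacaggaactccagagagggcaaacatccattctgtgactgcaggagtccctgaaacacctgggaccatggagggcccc
Hk1, downstream start, chr10:62340372-62340671, minus strand: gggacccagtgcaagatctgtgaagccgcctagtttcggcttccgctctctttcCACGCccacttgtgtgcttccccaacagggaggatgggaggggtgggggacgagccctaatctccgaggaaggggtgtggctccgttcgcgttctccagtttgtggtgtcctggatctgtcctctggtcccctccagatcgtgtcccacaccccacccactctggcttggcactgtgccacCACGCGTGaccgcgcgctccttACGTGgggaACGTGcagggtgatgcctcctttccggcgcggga
Hk2, chr6:82774405-82774704, minus strand: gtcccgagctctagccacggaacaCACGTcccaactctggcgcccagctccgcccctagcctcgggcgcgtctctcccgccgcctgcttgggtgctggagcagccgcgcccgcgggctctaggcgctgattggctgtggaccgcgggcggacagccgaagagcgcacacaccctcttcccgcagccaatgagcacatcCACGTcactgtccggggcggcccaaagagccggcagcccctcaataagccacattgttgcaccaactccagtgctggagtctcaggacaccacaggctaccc
Pfkp, chr13:6648722-6649021, minus strand: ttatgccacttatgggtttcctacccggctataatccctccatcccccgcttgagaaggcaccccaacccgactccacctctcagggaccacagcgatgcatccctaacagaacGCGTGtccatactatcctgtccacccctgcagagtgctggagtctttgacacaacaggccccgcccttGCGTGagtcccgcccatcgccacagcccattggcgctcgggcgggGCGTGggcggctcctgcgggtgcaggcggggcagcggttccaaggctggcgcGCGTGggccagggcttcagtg
Ldha, upstream start, chr7:46845554-46845853, plus strand: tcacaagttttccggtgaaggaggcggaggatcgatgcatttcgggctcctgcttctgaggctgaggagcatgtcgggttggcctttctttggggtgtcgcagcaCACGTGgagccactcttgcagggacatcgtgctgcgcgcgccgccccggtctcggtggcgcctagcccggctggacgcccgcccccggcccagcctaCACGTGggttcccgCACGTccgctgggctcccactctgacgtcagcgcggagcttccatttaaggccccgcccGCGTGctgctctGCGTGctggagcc
The upstream Hk1 window held 0 matches and the downstream one held 5, Hk2 held 2, Pfkp held 4, and the upstream Ldha window held 7 and the downstream one 2. The palindrome CACGTG, the E-box bound by MYC and other factors, occurred 2 times in the upstream Ldha window, and each copy counts as 2 overlapping HIF core matches. At least 1 HIF core was present in 13 of the 17 windows, against 43.8% of all 32851 RefSeq windows of that length. Windows of a gene can overlap, as some of Aldoa and of Eno1 do, so the same site can be counted again. By gene, 9 of the 10 members had a core in at least 1 window, and the share of all genes was not computed. The E-box was present in 1 of the 17 windows, against 7.15% of all windows. The upstream Ldha window held the most matches of the 17 windows. At least as many occurred in 0.301% of all windows, a share that describes a window picked by its count. Gene counts do not tell the starts of a gene apart, and the matches are given as a description of the sequence only.

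Libraries held 19632704 to 45539021 counted fragments, and Pearson's r of log2 levels between libraries of a group was at least 0.987 across genes. The labels number the replicates without saying that they were separate cultures, so the p-values measure the spread between these samples, which may be technical. Library numbers in the file header run from 1 to 21 for both PDS5AB groups and the untreated TIR1 group, and from 25 to 45 for the other groups, which are called library sets here. The treated TIR1 libraries hold the last numbers, 43 to 45, and their column names carry no line or replicate, so the numbers do not show that they were processed with libraries 25 to 42. The TIR1 treatment effect crosses these number ranges, and any difference between them cannot be told apart from treatment there. Pds5a messenger RNA read 57.4 to 111 CPM (counts scaled to the library total after TMM adjustment) in the lines with tagged PDS5A and 153 to 286 CPM elsewhere. Wapl read 150 to 196 CPM in the WAPL line but 254 to 315 CPM in WAPL-NIPBL, which also carries the tag, against 236 to 369 CPM in the lines without it. Pds5b read 104 to 151 CPM in the lines with tagged PDS5B and 99.7 to 144 CPM elsewhere. Nipbl read 61.3 to 75.3 CPM in WAPL-NIPBL, 110 to 127 CPM in PDS5AB-NIPBL and 121 to 194 CPM in the lines without the tag. Depletion by a degron acts on protein, so messenger RNA does not check it. Of the stem cell markers, 8 pluripotency genes were all expressed, with summed levels of 3340 to 6210 CPM over the 30 libraries.

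Some counts are lower than the transcript level, since fragments that match several genes were not counted. Annotated copies with at least 90% identity over at least 300 bases numbered 13 for Ldha, 8 for Pkm, 6 each for Aldoa and Eno1, 4 for Pgk1 and 1 for Gpi1. No such copy was found for Hk1, Hk2, Pfkl or Pfkp. Fragments counted to the Eno1 copy Eno1b came to 16% of those counted to Eno1. For the other members with copies, all copies together came to between 0.145% and 1.24% of the member's counts. Pfkp overlaps Pitrm1 on the opposite strand, and Pitrm1 counts came to 30.5% of Pfkp counts. Counting took no account of strand and set no overlap option, so fragments on exons of both genes were not counted, which lowers Pfkp. Other fragments of the overlap were counted whatever their strand, and Pfkp values carry that uncertainty.

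Levels per kilobase of exon, which allow a comparison between genes, put Aldoa first with a median of 665 CPM per kilobase over the 30 libraries. Pkm followed at 609, Ldha at 434, Eno1 at 377 and Pgk1 at 255 CPM per kilobase. The genes of the upper pathway were lower, with Gpi1 at 101, Hk2 at 89.3, Pfkl at 40.6, Pfkp at 32 and Hk1 at 28.5 CPM per kilobase. The enzymes of the lower pathway, from aldolase to lactate dehydrogenase, were thus each above every enzyme of the upper pathway in this median. The length divided by is that of all annotated exons of a gene, not of the expressed transcript. In undivided CPM the median of Gpi1 (652.5) was above that of Pgk1 (571.6), and Pfkp (428.8) was above Pfkl (271.2). Aldoa, Pkm, Ldha and Eno1 stayed above every upper-pathway gene in undivided CPM. Together the 10 genes took between 0.837% (SD 0.0508, n = 3, treated TIR1) and 1.35% (SD 0.0716, n = 3, untreated PDS5AB) of all counts.

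**Figure D1:**
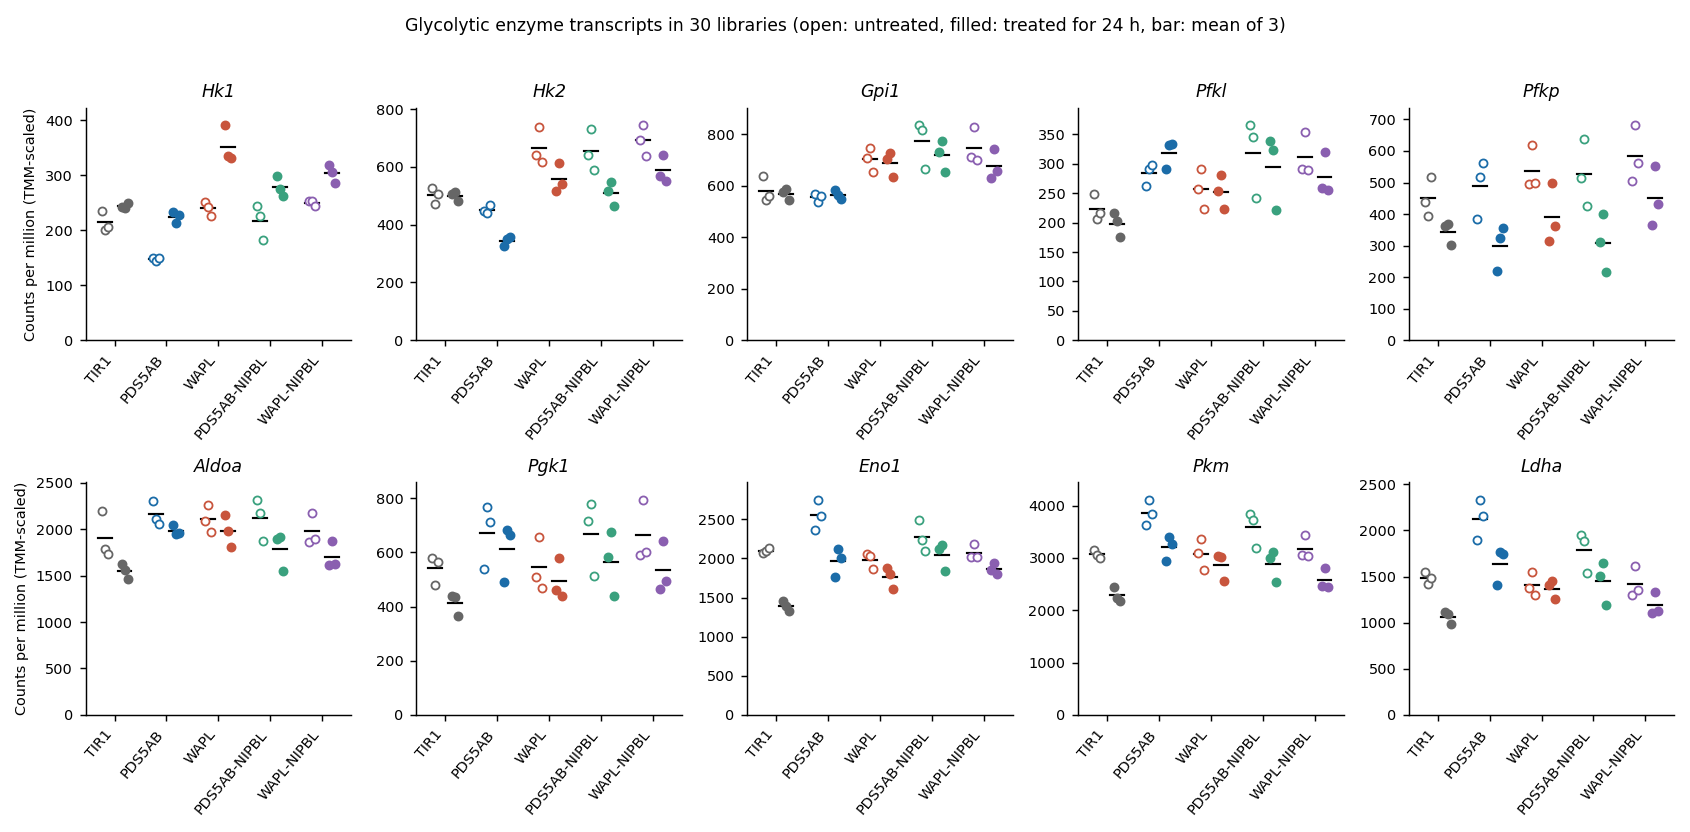
Levels of the 10 enzyme transcripts in each of the 30 libraries, as TMM-scaled CPM on a linear axis from 0, with open points for untreated and filled points for treated libraries and a bar at the mean of 3. Hk1 is higher and Hk2 lower in treated than in untreated PDS5AB and WAPL libraries, and Aldoa, Pgk1, Eno1, Pkm and Ldha have their highest mean in untreated PDS5AB and their lowest in treated TIR1 libraries.

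Hk1 encodes a hexokinase, the enzyme that phosphorylates glucose and traps it in the cell, and Hk1 is the isozyme found in most tissues (chr10:62268855-62379908, minus strand, GRCm38). Hk1 read 150, 143 and 149 CPM in untreated PDS5AB libraries and 234, 214 and 227 CPM in treated ones. Hk1 read 251, 243 and 226 CPM in untreated WAPL libraries and 391, 335 and 330.5 CPM in treated ones. In both lines every treated library was above every untreated one. Hk1 read 243, 225 and 182 CPM in untreated PDS5AB-NIPBL libraries and 298, 275 and 263 CPM in treated ones. Hk1 read 254, 252 and 244 CPM in untreated WAPL-NIPBL libraries and 318, 307 and 285 CPM in treated ones. The groups of these lines did not overlap either. The TIR1 control read 235, 201 and 206 CPM untreated and 242, 240 and 250 CPM treated, also without overlap but close to each other. Treated WAPL had the highest group mean and untreated PDS5AB the lowest, 2.39-fold apart. Down the order of the 10 group means, 6 of the 9 neighbouring groups overlapped, and the 3 gaps lay below treated WAPL, below treated PDS5AB-NIPBL and above untreated PDS5AB.

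Hk2, the hexokinase of insulin-sensitive tissues and of many fast-growing cells, had the opposite direction (chr6:82725025-82774454, minus strand). Hk2 read 448, 439 and 469 CPM in untreated PDS5AB libraries and 325, 350 and 357 CPM in treated ones. Hk2 read 642, 738 and 616 CPM in untreated WAPL libraries and 517, 615 and 539 CPM in treated ones. Both lines had all 3 treated libraries below all 3 untreated ones, in WAPL with 615 against 616 CPM at the closest. Hk2 read 642, 729 and 590 CPM in untreated PDS5AB-NIPBL libraries and 515, 547 and 466 CPM in treated ones. Hk2 read 694, 745 and 639 CPM in untreated WAPL-NIPBL libraries and 569, 642 and 553 CPM in treated ones. Treated and untreated groups were separate in PDS5AB-NIPBL and overlapped in WAPL-NIPBL. TIR1 libraries stayed together, at 527, 472 and 507 CPM untreated and 505, 513 and 482 CPM treated. The highest group mean, in untreated WAPL-NIPBL, was 2.01-fold the lowest, in treated PDS5AB, and 7 of the 9 neighbours in the order overlapped.

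Gpi1 encodes glucose phosphate isomerase, which turns the product of hexokinase into fructose phosphate (chr7:34201330-34230336, minus strand). Its group means lay between 556 ± 17.4 CPM (SD, n = 3) in untreated PDS5AB and 774 ± 93.8 CPM (SD, n = 3) in untreated PDS5AB-NIPBL libraries, a 1.39-fold range. All 9 neighbours in that order overlapped. Groups further apart did not: both PDS5AB groups, at 536 to 584 CPM, lay below every WAPL, PDS5AB-NIPBL and WAPL-NIPBL library, at 629 to 837 CPM.

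Phosphofructokinase makes the first committed step of glycolysis, and 2 of its genes are members: Pfkl, the liver type, and Pfkp, the platelet type (chr10:77986947-78010083 and chr13:6579768-6648777, both minus strand). Pfkl ranged from 176 CPM in a treated TIR1 library to 366 CPM in an untreated PDS5AB-NIPBL library. Its highest mean was 319 ± 24.6 CPM (SD, n = 3) in treated PDS5AB and its lowest was 199 ± 20.9 CPM (SD, n = 3) in treated TIR1 libraries. Pfkp read 385, 519 and 563 CPM in untreated PDS5AB libraries and 221, 325 and 354 CPM in treated ones. The spread within each group was wide, yet treated and untreated PDS5AB libraries did not overlap. Pfkp read 513, 639 and 427 CPM in untreated PDS5AB-NIPBL libraries and 312, 400 and 217 CPM in treated ones. Pfkp read 494, 619 and 498 CPM in untreated WAPL libraries and 316, 498 and 363 CPM in treated ones. The first of these lines was separated by treatment, and the WAPL groups overlapped between 494 and 498 CPM. Pfkp read 504, 682 and 563 CPM in untreated WAPL-NIPBL libraries and 366, 553 and 431 CPM in treated ones, which overlapped. TIR1 libraries read 439, 395 and 518 CPM untreated and 361, 370 and 302 CPM treated, without overlap. All 9 neighbours overlapped in the order of Pfkl as well as in that of Pfkp.

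Aldoa (chr7:126795234-126800751, minus strand) splits fructose bisphosphate into a pair of trioses, and Pgk1 (chrX:106187100-106203699, plus strand) transfers a phosphate from bisphosphoglycerate to make ATP. Aldoa ranged from 1459 CPM in a treated TIR1 library to 2319 CPM in an untreated PDS5AB-NIPBL library. Its group means ran from 1549 ± 83.4 CPM (SD, n = 3, treated TIR1) to 2160 ± 130 CPM (SD, n = 3, untreated PDS5AB). Pgk1 ranged from 364 CPM in a treated TIR1 library to 795 CPM in an untreated WAPL-NIPBL library. Its means ran from 413 ± 43.1 CPM (SD, n = 3, treated TIR1) to 674 ± 120 CPM (SD, n = 3, untreated PDS5AB). All 9 neighbours in the order overlapped for both genes. Pgk1 was among the members with the widest spread within groups.

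Eno1, enolase, forms phosphoenolpyruvate (chr4:150236721-150248879, plus strand). Eno1 read 2072, 2096 and 2136 CPM in untreated TIR1 libraries and 1453, 1392 and 1323 CPM in treated ones. Eno1 read 2367, 2752 and 2545 CPM in untreated PDS5AB libraries and 1766, 2119 and 2006 CPM in treated ones. Treated TIR1 libraries were the lowest of all 30, and the groups of both lines were separate. Eno1 read 2053, 2037 and 1863 CPM in untreated WAPL libraries and 1881, 1800 and 1608 CPM in treated ones. Eno1 read 2486, 2235 and 2101 CPM in untreated PDS5AB-NIPBL libraries and 2127, 2177 and 1843 CPM in treated ones. Eno1 read 2013, 2181 and 2019 CPM in untreated WAPL-NIPBL libraries and 1848, 1948 and 1802 CPM in treated ones. Of these last 3 lines, treatment groups overlapped in WAPL and PDS5AB-NIPBL and were separate in WAPL-NIPBL.

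Pkm encodes the muscle-type pyruvate kinase, which forms pyruvate and ATP, and its splice isoforms are summed in these gene counts (chr9:59656368-59679375, plus strand). Pkm read 3151, 3055 and 3008 CPM in untreated TIR1 libraries and 2438, 2244 and 2178 CPM in treated ones. Pkm read 3639, 4115 and 3846 CPM in untreated PDS5AB libraries and 2937, 3402 and 3275 CPM in treated ones. In both lines the groups were separate. Pkm read 3833, 3732 and 3188 CPM in untreated PDS5AB-NIPBL libraries and 3006, 3119 and 2549 CPM in treated ones. Pkm read 3065, 3436 and 3039 CPM in untreated WAPL-NIPBL libraries and 2468, 2804 and 2450 CPM in treated ones. These lines were separated as well, whereas WAPL libraries, at 3105, 3357 and 2778 CPM untreated and 3038, 3023 and 2561 CPM treated, overlapped. The treated TIR1 group had the lowest mean, 2287 ± 135 CPM (SD, n = 3), and was the only group separated from its neighbour in the order.

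Ldha encodes the lactate dehydrogenase subunit that favours the reduction of pyruvate to lactate (chr7:46841475-46855627, plus strand). Ldha read 1554, 1424 and 1484 CPM in untreated TIR1 libraries and 1113, 1092 and 984 CPM in treated ones. Ldha read 1899, 2334 and 2155 CPM in untreated PDS5AB libraries and 1410, 1765 and 1746 CPM in treated ones. Both lines had separate groups. Ldha read 1946, 1885 and 1539 CPM in untreated PDS5AB-NIPBL libraries and 1507, 1647 and 1194 CPM in treated ones. Ldha read 1301, 1614 and 1355 CPM in untreated WAPL-NIPBL libraries and 1102, 1335 and 1129 CPM in treated ones. Ldha read 1381, 1547 and 1300 CPM in untreated WAPL libraries and 1409, 1449 and 1252 CPM in treated ones. These 3 lines overlapped. Across groups Ldha spanned 2.00-fold, from 1063 ± 68.8 CPM (SD, n = 3) in treated TIR1 to 2129 ± 218 CPM (SD, n = 3) in untreated PDS5AB libraries.

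Auxin in the TIR1 control asks what the treatment does without a degron fusion. Eno1, Pkm, Ldha and Aldoa, all enzymes of the lower pathway, were called lower. Eno1 had a log2 fold change of -0.60 ± 0.078 (SE, adjusted p = 2.23e-06), Ldha of -0.49 ± 0.11 (adjusted p = 0.00235), Pkm of -0.43 ± 0.088 (adjusted p = 0.000872) and Aldoa of -0.30 ± 0.0945 (adjusted p = 0.0233), each from 3 against 3 libraries. The call of Aldoa was lost without untreated replicate 1, where its log2 fold change was -0.16 (adjusted p = 0.292), and without treated replicate 2 or 3 (adjusted p = 0.0638 and 0.122). The hexokinases and the other 4 members did not pass, with Hk2 at -0.006 (adjusted p = 0.974) and Hk1 at 0.19 (adjusted p = 0.102). Among those not called, Pfkp of the upper pathway read -0.39 ± 0.20 (adjusted p = 0.173) and Pgk1 -0.39 ± 0.17 (adjusted p = 0.11). Both values lay below that of Aldoa, with larger standard errors and without overlap of the groups. The count of 4 of 10, all lower, stands beside 19.9% of all genes called, 10.4% higher and 9.59% lower. The median log2 fold change was -0.34 over the members and -0.005 over all genes tested.

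Auxin in the PDS5AB line raised Hk1 and lowered Hk2, Pfkp, Eno1, Pkm and Ldha. Hk1 had a log2 fold change of 0.61 ± 0.082 (SE, adjusted p = 4.1e-07) and Hk2 of -0.39 ± 0.083 (adjusted p = 0.000272). Pfkp followed with -0.71 ± 0.20 (adjusted p = 0.00442). The lower pathway gave -0.38 ± 0.077 for Eno1 (adjusted p = 0.000175), -0.38 ± 0.11 for Ldha (adjusted p = 0.00618) and -0.27 ± 0.088 for Pkm (adjusted p = 0.0121). The 6 calls of 10 stand beside 46% of all genes called, 25.8% higher and 20.2% lower. Same-numbered libraries of the 4 degron lines deviated together, so a fit with the replicate number as a block was also read. With the block 9 members were called, adding Pfkl as higher (0.17 ± 0.040, adjusted p = 0.000596) and Aldoa and Pgk1 as lower (-0.12 and -0.14, adjusted p = 0.0146 and 0.0207), where all genes gave 56.6%, 30.7% higher and 26% lower. Without the block, leaving out 1 library moved Pgk1 between -0.28 (without untreated replicate 1) and -0.015 (without treated replicate 1) and Aldoa to -0.072 (without untreated replicate 1). Under scaling to the total count, without the block, Hk2 read -0.24, Eno1 -0.22 and Pfkl 0.32, and Aldoa and Pgk1 read 0.034 and 0.017. With that scaling Pkm and Ldha read -0.116 and -0.222 and were not called (adjusted p = 0.267 and 0.101). Pkm was also not called without treated replicate 1 (adjusted p = 0.0634) or untreated replicate 2 (adjusted p = 0.0679), nor Ldha without treated replicate 1 (adjusted p = 0.052).

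Auxin in the WAPL line raised Hk1, with a log2 fold change of 0.55 ± 0.081 (SE, adjusted p = 3.43e-06), and lowered Hk2, with -0.26 ± 0.083 (adjusted p = 0.0174). The other 8 members read from -0.45 for Pfkp (adjusted p = 0.0811) to -0.027 for Pfkl and did not pass. Scaled to the total count, the untreated and treated WAPL means turned to 682 and 707.4 CPM for Gpi1, 249.6 and 259.7 CPM for Pfkl and 1368 and 1409 CPM for Ldha. The 2 calls of 10 stand beside 32.8% of all genes, 17% higher and 15.8% lower. With the replicate block Pfkp (-0.47, adjusted p = 2.61e-06), Eno1 (-0.17, adjusted p = 0.000282), Pgk1 (-0.14, adjusted p = 0.0251) and Pkm (-0.10, adjusted p = 0.0133) were called lower too, which made 6 members beside 45.1% of all genes, 22.1% higher and 23% lower. Without the block, Pgk1 read 0.02 and Pkm -0.023 without untreated replicate 2. Pkm read -0.0034, Eno1 -0.089 and Pgk1 -0.044 without treated replicate 3. Scaling to the total count gave -0.088 for Eno1, -0.017 for Pkm and -0.058 for Pgk1. Without the block the call of Hk2 was lost without treated replicate 1 (adjusted p = 0.102), untreated replicate 2 (adjusted p = 0.174) or treated replicate 3 (adjusted p = 0.11). It was likewise lost under scaling to the total count (adjusted p = 0.125) and in a fit of the WAPL groups alone (adjusted p = 0.114).

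Auxin with dTAG-13 in the PDS5AB-NIPBL line raised Hk1 (log2 fold change 0.36 ± 0.081, SE, adjusted p = 0.00165) and lowered Hk2 (-0.36 ± 0.083, adjusted p = 0.00206), Pfkp (-0.77 ± 0.20, adjusted p = 0.00608) and Pkm (-0.31 ± 0.088, adjusted p = 0.0115). The 4 calls of 10 stand beside 19.5% of all genes, 11.4% higher and 8.06% lower. With the block 9 members were called, with Ldha (-0.31), Aldoa (-0.25), Pgk1 (-0.24), Eno1 (-0.15) and Pfkl (-0.11) added as lower, beside 32.1% of all genes, 16.8% higher and 15.3% lower. Their adjusted p with the block lay between 2.33e-07 for Ldha and 0.0326 for Pfkl. Without untreated replicate 1 or treated replicate 3 the unblocked log2 fold change of Pfkl read 0.00084 and 0.067. Without treated replicate 3 the unblocked values were -0.081 for Pgk1, -0.072 for Eno1, -0.15 for Aldoa and -0.18 for Ldha. Eno1 read -0.084 without untreated replicate 1, and Pgk1 -0.12 without untreated replicate 2 and -0.40 without untreated replicate 3. Pfkp was not called without untreated replicate 2 (adjusted p = 0.0504) or treated replicate 3 (adjusted p = 0.0719), nor Pkm without untreated replicate 1 (adjusted p = 0.0615) or treated replicate 3 (adjusted p = 0.116).

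Auxin with dTAG-13 in the WAPL-NIPBL line raised Hk1 (log2 fold change 0.28 ± 0.081, SE, adjusted p = 0.0274) and lowered Pkm (-0.31 ± 0.088, adjusted p = 0.025). The 2 calls of 10 stand beside 8.57% of all genes, 5.11% higher and 3.45% lower. With the replicate block all 10 members were called, Hk1 higher and 9 lower, beside 20.9% of all genes, 10.8% higher and 10.1% lower. Among those 9, Pgk1 read -0.31 (adjusted p = 2.11e-05), Ldha -0.26 (adjusted p = 9.89e-06), Hk2 -0.24 (adjusted p = 3.89e-05) and Gpi1 -0.14 (adjusted p = 0.01). Without untreated replicate 2 the unblocked values were -0.054 for Gpi1, -0.049 for Pfkl, -0.24 for Pfkp, -0.13 for Aldoa, -0.15 for Pgk1 and -0.15 for Ldha. Without treated replicate 1 they were -0.084 for Gpi1, -0.10 for Pfkl and -0.24 for Pfkp. Without the block, Hk1 was not called without untreated replicate 1, 2 or 3 (adjusted p = 0.0562, 0.055 and 0.0954) or treated replicate 1 or 2 (adjusted p = 0.101 and 0.0644). Pkm was not called without treated replicate 1 (adjusted p = 0.109), untreated replicate 2 (adjusted p = 0.146) or treated replicate 3 (adjusted p = 0.139).

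**Figure D2:**
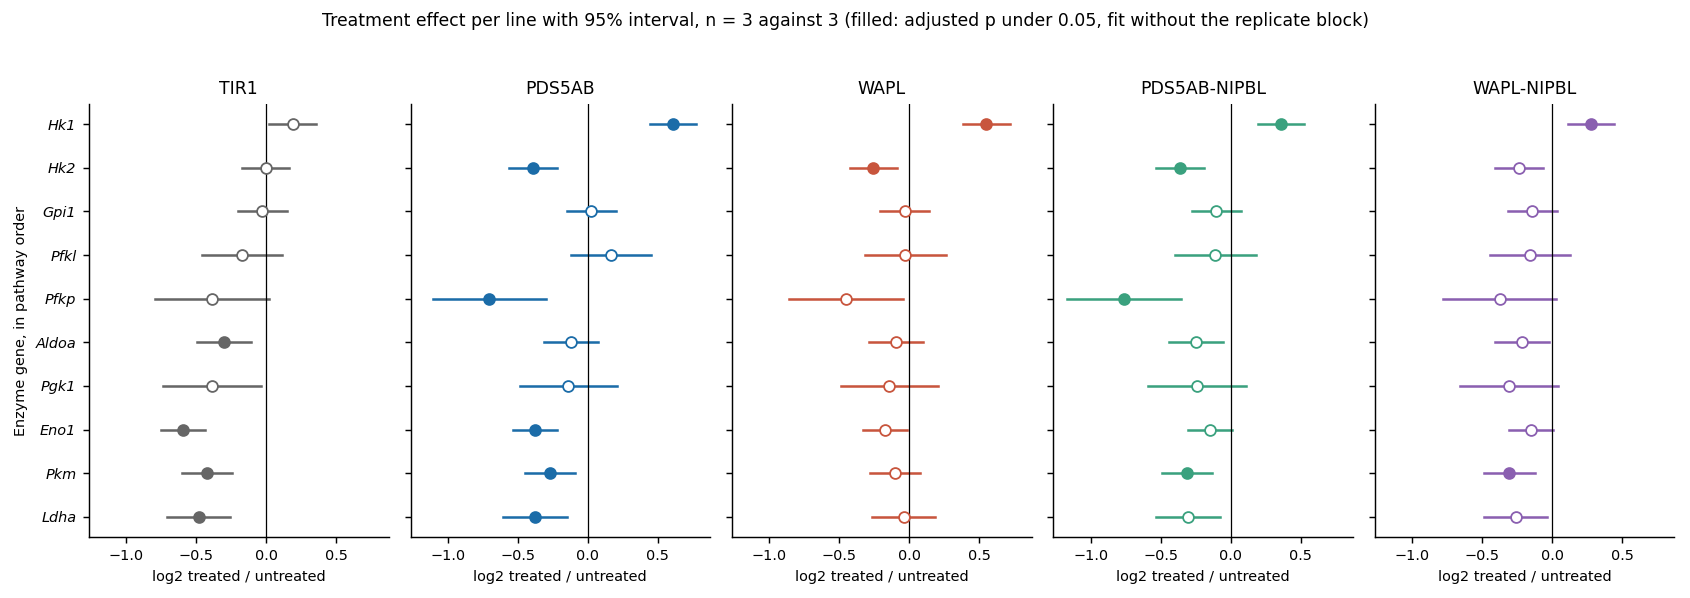
Log2 ratio of treated to untreated level for each enzyme and line, with 95% intervals from the fit without the replicate block, 3 against 3 libraries, filled where the adjusted p was under 0.05. Hk1 lies to the right of 0 in all 5 lines and is filled in the 4 degron lines, and Hk2, Pfkp, Aldoa, Pgk1, Eno1, Pkm and Ldha lie to the left of 0 in all 5 with TMM scaling. Scaled to the total count, treated means exceed untreated ones for Aldoa and Pgk1 in PDS5AB, Ldha in WAPL and Hk2 in TIR1 (486.4 and 489.2 CPM).

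Read member by member, Hk1 was above 0 and called in 4 of 4 degron lines, between 0.28 and 0.61. In TIR1 it read 0.19 (adjusted p = 0.102), and without the block its difference from TIR1 was called in PDS5AB and WAPL only. Hk2 was below 0 in 4 of 4 and called lower in 3, and with the block in 4. Pkm was called lower in 3, Pfkp in 2, and Eno1 and Ldha in 1 each, and with the block the counts were 4 for Pkm, Pfkp, Eno1 and Pgk1 and 3 for Aldoa and Ldha. With the block Pfkl was called higher in PDS5AB and lower in PDS5AB-NIPBL and WAPL-NIPBL. Gpi1 was called lower in WAPL-NIPBL with the block and in no other of these fits, and its unblocked values lay between -0.14 and 0.03. The difference between treated and untreated libraries of the same number had the sign of the group effect in 12 of 12 pairs for Hk1, Hk2, Pfkl, Pfkp, Pgk1, Eno1 and Pkm and in 11 of 12 for Gpi1, Aldoa and Ldha. The group effect comes from these same libraries, so the agreement is partly built in and is a description only. Effects near 0 reached it too, as Pfkl did in WAPL at -0.027, and the share of all genes was not computed. The members' median log2 fold change was -0.20 for PDS5AB, -0.10 for WAPL, -0.25 for PDS5AB-NIPBL and -0.23 for WAPL-NIPBL, and those of all genes tested between 0.003 and 0.04.

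Hk1 and Hk2 moved in opposite directions, so their ratio per kilobase was described, a measure derived after the values of the genes were seen and given without a test. The ratio of Hk1 to Hk2 averaged 0.228 ± 0.0055 (SD, n = 3) in untreated and 0.458 ± 0.040 (SD, n = 3) in treated PDS5AB libraries. The corresponding means were 0.254 and 0.446 in WAPL, 0.232 and 0.384 in PDS5AB-NIPBL, and 0.253 and 0.362 in WAPL-NIPBL libraries. In TIR1 libraries it was 0.298 ± 0.014 (SD, n = 3) untreated and 0.342 ± 0.019 (SD, n = 3) treated. Treated ratios were above untreated ones without overlap in all 5 lines, and every ratio was below 1, so Hk2 stayed the more abundant transcript. The ratio of Pfkp to Pfkl averaged 0.854 ± 0.11 (SD, n = 3) in untreated and 0.465 ± 0.077 (SD, n = 3) in treated PDS5AB libraries. It went from 0.832 to 0.52 in PDS5AB-NIPBL, from 1.04 to 0.771 in WAPL and from 0.932 to 0.8 in WAPL-NIPBL, with no overlap in these 4 lines, and from 1.01 to 0.864 with overlap in TIR1. Per kilobase Pfkl was the more abundant in every treated library and in every untreated library of PDS5AB, PDS5AB-NIPBL and WAPL-NIPBL. That order depends on the annotated exon length, since the median of undivided CPM was 428.8 for Pfkp and 271.2 for Pfkl. Untreated TIR1 and WAPL libraries lay on both sides of 1, at 0.878 to 1.19 and 0.959 to 1.11. Fragments on exons shared with Pitrm1 were not counted, which can lower this ratio, and other Pitrm1 fragments within Pfkp can enter it.

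**Figure D3:**
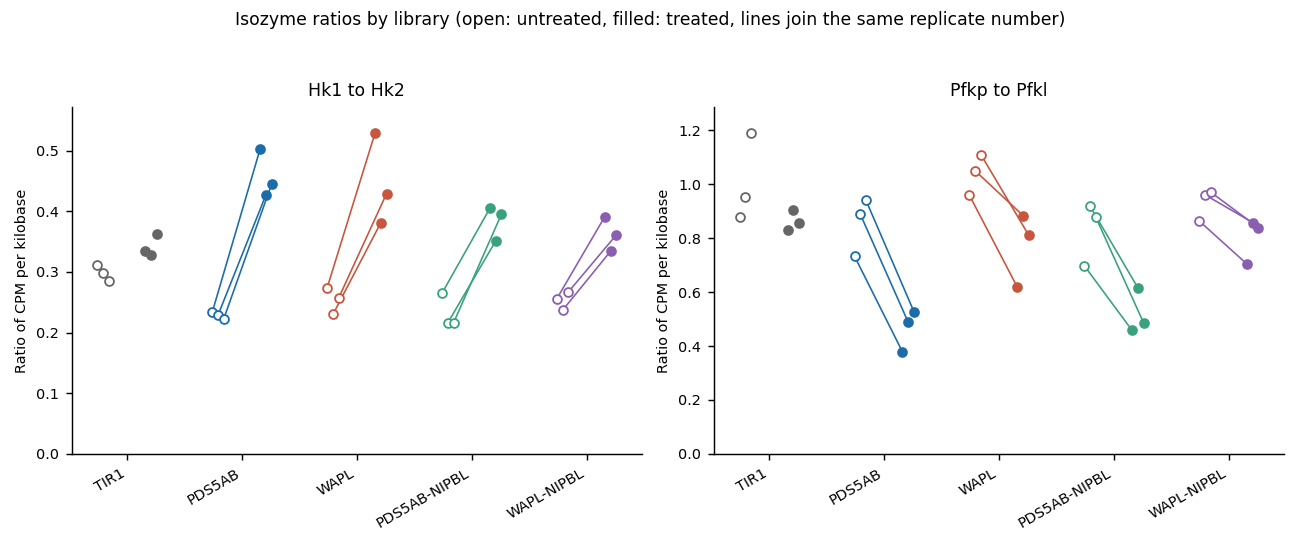
Ratio of Hk1 to Hk2 and of Pfkp to Pfkl per kilobase in each library, on linear axes from 0, open for untreated and filled for treated, with lines joining libraries of the same replicate number. The Hk1 to Hk2 ratio is higher in every treated library of a line than in its untreated ones, and the Pfkp to Pfkl ratio is lower in the 4 degron lines.

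The untreated lines also differed from untreated TIR1 cells before any drug was given. Untreated PDS5AB libraries, which share a library set with untreated TIR1, had lower Hk1 (log2 fold change -0.54, adjusted p = 4.38e-06) and higher Ldha (0.52, adjusted p = 0.000491), Pkm (0.33, adjusted p = 0.0038) and Eno1 (0.28, adjusted p = 0.00514). These 4 calls stand beside 32% of all genes, 15.5% higher and 16.5% lower. Untreated WAPL libraries had higher Hk2 (0.41, adjusted p = 0.00115) and Gpi1 (0.27, adjusted p = 0.0312), beside 14% of all genes, 6.62% higher and 7.39% lower. Untreated PDS5AB-NIPBL libraries had higher Hk2 (0.38, adjusted p = 0.000654), Gpi1 (0.41, adjusted p = 0.000411), Pfkl (0.51, adjusted p = 0.00602, with overlapping groups) and Pkm (0.22, adjusted p = 0.0493), beside 34.3% of all genes, 16.5% higher and 17.8% lower. Untreated WAPL-NIPBL libraries had higher Hk1 (0.23, adjusted p = 0.0378), Hk2 (0.46, adjusted p = 9.48e-05), Gpi1 (0.36, adjusted p = 0.00196) and Pfkl (0.47, adjusted p = 0.0123), beside 28% of all genes, 13.4% higher and 14.6% lower. Higher Hk2 and Gpi1 were therefore called in the same 3 lines, and all 3 were read against the same untreated TIR1 libraries and across library sets. Each line is 1 cell line, so the tag and other differences of the line cannot be told apart. Gpi1 in WAPL was not called without untreated TIR1 replicate 2 or 3 or untreated WAPL replicate 1 or 2 (adjusted p = 0.0603 to 0.152), and Pkm in PDS5AB-NIPBL not without any single untreated TIR1 replicate or untreated PDS5AB-NIPBL replicate 1 or 2 (adjusted p = 0.0555 to 0.151), nor when its copies were added to its counts (adjusted p = 0.0527). Hk1 in WAPL-NIPBL was not called without untreated TIR1 replicate 2 or 3 or untreated WAPL-NIPBL replicate 1 or 2 (adjusted p = 0.0835 to 0.168), nor Pfkl without replicate 2 of either group (adjusted p = 0.063 and 0.0848).

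Treated degron libraries were also set against treated TIR1 libraries, for the 3 lines with libraries numbered 25 or above. Both sides received auxin, but PDS5AB-NIPBL and WAPL-NIPBL also received dTAG-13. Treated WAPL libraries were higher in 7 members: Hk1 (0.53, adjusted p = 3.94e-06), Ldha (0.37, adjusted p = 0.00911), Aldoa (0.36, adjusted p = 0.00319), Pfkl (0.35, adjusted p = 0.0498), Eno1 (0.34, adjusted p = 0.000643), Pkm (0.33, adjusted p = 0.00323) and Gpi1 (0.27, adjusted p = 0.012). They stand beside 39.7% of all genes, 19.9% higher and 19.8% lower. Treated PDS5AB-NIPBL libraries were higher in 6 members, from Eno1 (0.56, adjusted p = 8.79e-07) and Pfkl (0.57, adjusted p = 0.00177) through Pgk1 (0.46, adjusted p = 0.0358) and Ldha (0.45, adjusted p = 0.00189) to Pkm (0.34, adjusted p = 0.00276) and Gpi1 (0.34, adjusted p = 0.00234). All genes gave 37.7%, 19.4% higher and 18.3% lower. Treated WAPL-NIPBL libraries were higher in 5 members: Pfkl (0.49, adjusted p = 0.00814), Eno1 (0.43, adjusted p = 7.01e-05), Hk1 (0.31, adjusted p = 0.00322), Gpi1 (0.25, adjusted p = 0.0262) and Hk2 (0.23, adjusted p = 0.0313), beside 31% of all genes, 15.5% higher and 15.4% lower. Gpi1, Pfkl and Eno1 were higher in each of the 3 lines, which share the treated TIR1 libraries. These calls were not all stable to 1 library. In WAPL, Gpi1 was lost without treated WAPL replicate 2 (adjusted p = 0.0558) and Pfkl without treated WAPL replicate 1 or 2 or treated TIR1 replicate 2 or 3 (adjusted p = 0.0743 to 0.187). In PDS5AB-NIPBL, Pgk1 was lost with DESeq2 (adjusted p = 0.0685) and without treated PDS5AB-NIPBL replicate 1 or 2 or treated TIR1 replicate 2 or 3 (adjusted p = 0.0538 to 0.237). In WAPL-NIPBL, Hk2 and Gpi1 were lost without treated WAPL-NIPBL replicate 2 or treated TIR1 replicate 1 or 3 (adjusted p = 0.0557 to 0.214) and Pfkl without treated WAPL-NIPBL replicate 2 or treated TIR1 replicate 3 (adjusted p = 0.0763 and 0.0567).

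The difference between a degron line's treatment effect and that of TIR1 was tested directly. It shares the TIR1 libraries over all 4 lines and carries the library set of the TIR1 effect. Hk1 rose more in PDS5AB than in TIR1 by 0.42 ± 0.12 (log2, SE, adjusted p = 0.00666) and Hk2 had the lower effect by 0.39 (difference -0.39 ± 0.12, adjusted p = 0.0145), 2 calls beside 26.3% of all genes. In WAPL against TIR1 the differences were 0.36 ± 0.12 for Hk1 (adjusted p = 0.0221), 0.43 ± 0.11 for Eno1 (adjusted p = 0.00516) and 0.44 ± 0.16 for Ldha (adjusted p = 0.043), beside 20.7% of all genes. Eno1 differed in PDS5AB-NIPBL (0.45 ± 0.11, adjusted p = 0.00774, beside 10.1% of all genes) and in WAPL-NIPBL (0.45 ± 0.11, adjusted p = 0.0105, beside 7.04%). The Hk1 difference was called in neither of these lines, with 0.17 in PDS5AB-NIPBL (adjusted p = 0.378). With the block in the degron lines only, where the numbers pair, 5 members had the higher effect and 2 the lower in PDS5AB, 5 and 1 in WAPL, 1 and 2 in PDS5AB-NIPBL and 2 and 1 in WAPL-NIPBL, beside 38.6%, 33.5%, 22.7% and 19.9% of all genes. For Eno1 and Ldha a positive difference means a smaller fall than in TIR1. The Hk1 difference of PDS5AB was lost without untreated TIR1 replicate 1 (adjusted p = 0.0514) and its Hk2 difference under total-count scaling (-0.25, adjusted p = 0.13). In WAPL the Hk1 difference was lost without untreated TIR1 replicate 1 (adjusted p = 0.0878), treated WAPL replicate 1 (adjusted p = 0.0793) or untreated WAPL replicate 3 (adjusted p = 0.0637), and the Ldha difference in 8 alternative fits (adjusted p = 0.0554 to 0.105).

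Differences between the degron lines ask whether the members respond by a different amount when another cofactor is depleted. With TMM scaling, the filter and no block, edgeR called 0 members in each of the 3 differences, and DESeq2 called 0. Under other settings Hk1 was called in PDS5AB-NIPBL against PDS5AB, with total-count scaling (adjusted p = 0.0278) and without untreated PDS5AB-NIPBL replicate 3 (adjusted p = 0.0299). Ldha was called in PDS5AB against WAPL without the filter (adjusted p = 0.00651). The unadjusted p was under 0.05 for 2 members in PDS5AB-NIPBL against PDS5AB, for 1 in WAPL-NIPBL against WAPL and for 1 in PDS5AB against WAPL. At an adjusted p under 0.05, where 0 members were called, all genes gave 9.46%, 5.19% and 12.5% in the same order. The share of all genes at the unadjusted threshold was not computed. With the block, 3 members differed between PDS5AB-NIPBL and PDS5AB: Hk1 (-0.24, adjusted p = 0.00818) rose less, Pfkl (-0.28, adjusted p = 0.000382) had the lower effect, and Eno1 (0.23, adjusted p = 0.00137) fell less. They stand beside 24.4% of all genes. Without the block, the Pfkl difference ran from -0.44 without untreated PDS5AB-NIPBL replicate 3 to -0.092 without treated PDS5AB-NIPBL replicate 3, Hk1 read -0.16 without untreated PDS5AB-NIPBL replicate 1, and Eno1 0.12 under total-count scaling. Likewise 3 members differed between WAPL-NIPBL and WAPL, Hk1 (-0.27, adjusted p = 0.00383), Pkm (-0.21, adjusted p = 0.00203) and Ldha (-0.22, adjusted p = 0.00607), beside 15.5% of all genes. Ldha read -0.12, unblocked, without untreated WAPL-NIPBL replicate 2. Between PDS5AB and WAPL, 4 members differed with the block, Ldha (-0.34, adjusted p = 2.3e-05), Eno1 (-0.21, adjusted p = 0.00299), Pkm (-0.17, adjusted p = 0.00547) and Pfkl (0.19, adjusted p = 0.0102), beside 27.3% of all genes. Unblocked, Pfkl read 0.077 without untreated WAPL replicate 2 and 0.084 without treated WAPL replicate 3, Pkm -0.28 without the latter and -0.099 under total-count scaling, and Eno1 -0.14 under that scaling. The lines compared lie in different library sets for PDS5AB against the others, and NIPBL depletion, dTAG-13 and the RAD21 tag enter together in the combined lines.

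Members varied together within groups. Over the 30 libraries, deviations from the group mean had a Pearson's r above 0 for 45 of 45 pairs of members, with a median of 0.73. The 36 pairs without Hk1 had a median of 0.768, and the 9 pairs with Hk1 a median of 0.378. All values of a library share its RNA, depth and scaling, so these correlations describe libraries and carry no p. The deviations were largest for Pfkp, Pgk1 and Pfkl, with within-group SDs of 0.291, 0.248 and 0.203 on the log2 scale, against 0.0971 for Eno1 and 0.154 for Ldha. In PDS5AB-NIPBL, the mean deviation of the 9 members other than Hk1 was -0.23 in untreated and -0.25 in treated replicate 3. In WAPL-NIPBL replicate 2 it was 0.17 untreated and 0.18 treated. The sign was the same in treated and untreated libraries of a number in 12 of 12 pairs of the degron lines and in 1 of 3 pairs of TIR1. The members thus carried a replicate pattern that the 4 degron lines shared between treatment arms. Same-numbered libraries of these lines also deviated together over all genes tested (r 0.109 to 0.333 over 12 pairs). Correlations between other genes were not computed, so the pattern is not shown to be particular to the members.

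**Figure D4:**
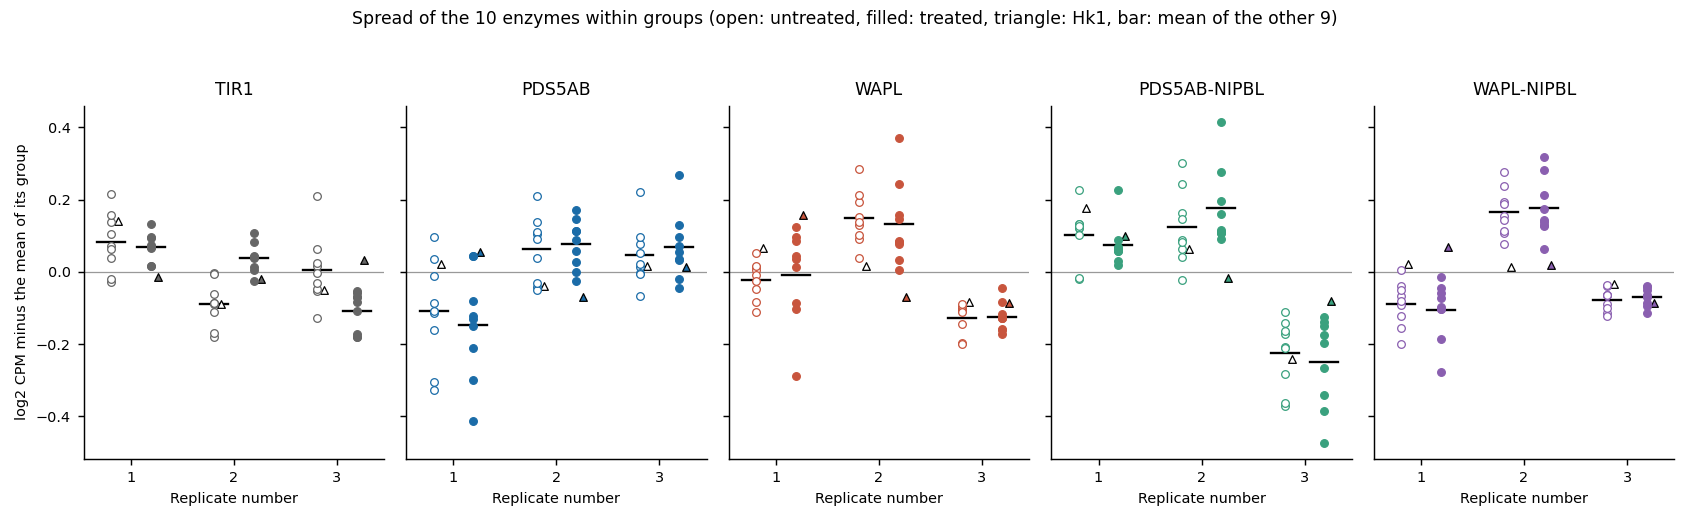
Deviation of log2 CPM from the mean of its group for each member and library, by line and replicate number, open for untreated and filled for treated, with triangles for Hk1 and a bar at the mean of the other 9. Replicate 3 of PDS5AB-NIPBL lies below 0 in both treatment arms (-0.23 and -0.25) and replicate 2 of WAPL-NIPBL above it (0.17 and 0.18).

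The steps between aldolase and pyruvate kinase that the 10 members leave out are those of Tpi1, Gapdh and Pgam1. Triosephosphate isomerase Tpi1 fell in TIR1 (-0.37, adjusted p = 0.0291) and PDS5AB-NIPBL (-0.39, adjusted p = 0.0222), and with the block also in PDS5AB (-0.21, adjusted p = 0.000164), WAPL (-0.12, adjusted p = 0.0378) and WAPL-NIPBL (-0.32, adjusted p = 3.22e-06). Gapdh, the dehydrogenase often used as a reference transcript, averaged 4390 ± 261 CPM (SD, n = 3) in untreated and 3510 ± 205 CPM (SD, n = 3) in treated PDS5AB libraries. It fell in PDS5AB (-0.32, adjusted p = 0.000421) and TIR1 (-0.30, adjusted p = 0.00315), and with the block also in WAPL (-0.10, adjusted p = 0.0167), PDS5AB-NIPBL (-0.12, adjusted p = 0.00773) and WAPL-NIPBL (-0.16, adjusted p = 0.000728). The mutase Pgam1 read 321 ± 4.6 CPM (SD, n = 3) in untreated and 236 ± 3.4 CPM (SD, n = 3) in treated PDS5AB libraries. It fell in PDS5AB (-0.44, adjusted p = 4.52e-05), WAPL (-0.39, adjusted p = 0.000356) and PDS5AB-NIPBL (-0.32, adjusted p = 0.00461), and with the block in WAPL-NIPBL (-0.23, adjusted p = 5.08e-05), while in TIR1 it read -0.08 (adjusted p = 0.541).

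The counts of gene lists that follow stand beside the shares of all genes called, which were 19.9% for TIR1, 46% for PDS5AB, 32.8% for WAPL, 19.5% for PDS5AB-NIPBL and 8.57% for WAPL-NIPBL. With the block the shares for the 4 degron lines were 56.6%, 45.1%, 32.1% and 20.9% in the same order. Among 19 tested other genes of the glycolytic steps, mostly minor isozymes, 5 rose and 3 fell in PDS5AB, 4 rose and 2 fell in WAPL, 2 rose and 2 fell in PDS5AB-NIPBL, 3 rose in WAPL-NIPBL and 1 rose and 5 fell in TIR1. The 8 of 19 in PDS5AB and 6 of 19 in WAPL lie near the shares of all genes. The block gave 8 higher and 4 lower in PDS5AB, 5 higher and 7 lower in WAPL, 3 higher and 5 lower in PDS5AB-NIPBL and 3 higher and 4 lower in WAPL-NIPBL. Eno3, the muscle enolase, went from 15.6 ± 1.47 to 68.5 ± 14.1 CPM (SD, n = 3 each) in WAPL, a log2 fold change of 2.13 (adjusted p = 2.56e-13), rose by 0.72 in WAPL-NIPBL (adjusted p = 0.000544) and fell by 1.07 in TIR1 (adjusted p = 1.4e-06). The muscle mutase Pgam2, at 2.46 to 5.33 CPM in group means of the degron lines, rose in all 4, by 0.90 (adjusted p = 7.38e-05), 0.91 (adjusted p = 8.81e-05), 0.97 (adjusted p = 0.000163) and 0.70 (adjusted p = 0.0068) in PDS5AB, WAPL, PDS5AB-NIPBL and WAPL-NIPBL. Ldhb, the subunit that favours lactate oxidation, rose in PDS5AB-NIPBL from 609 ± 53.6 to 949 ± 40.1 CPM (SD, n = 3 each; 0.64, adjusted p = 9.6e-06) and in WAPL-NIPBL (0.30, adjusted p = 0.0458). The muscle phosphofructokinase Pfkm rose in PDS5AB (0.50, adjusted p = 4.54e-05) and WAPL (0.58, adjusted p = 7.44e-06).

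Transport of glucose and lactate was read from 8 genes. Slc2a1 and Slc2a3, which encode glucose importers, fell in 3 lines. Slc2a1 read -0.72 in WAPL (adjusted p = 0.000205), -0.86 in PDS5AB-NIPBL (adjusted p = 5.23e-05) and -0.68 in WAPL-NIPBL (adjusted p = 0.00174), and 0.27 in PDS5AB (adjusted p = 0.125, and called higher with the block, adjusted p = 1.81e-05). Slc2a3 read -0.69 in WAPL (adjusted p = 0.000219), -0.54 in PDS5AB-NIPBL (adjusted p = 0.00498) and -0.46 in WAPL-NIPBL (adjusted p = 0.0309), and -0.26 in PDS5AB (adjusted p = 0.124, called lower with the block, adjusted p = 1.03e-05). Of the 8 genes, 1 rose and 4 fell in WAPL, 1 rose and 3 fell in PDS5AB-NIPBL, 1 rose and 2 fell in WAPL-NIPBL, 2 rose and 1 fell in PDS5AB, and 1 fell in TIR1. The block gave 5 higher and 2 lower in PDS5AB, 1 and 6 in WAPL, 1 and 4 in PDS5AB-NIPBL and 1 and 3 in WAPL-NIPBL.

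Regulators that set the flux of glycolysis and the fate of pyruvate numbered 13. In PDS5AB 7 rose and 2 fell, in WAPL 2 rose and 1 fell, in PDS5AB-NIPBL 2 rose and 1 fell, in WAPL-NIPBL 2 rose and in TIR1 2 rose and 2 fell, and the block gave 9 higher and 2 lower in PDS5AB, 5 and 2 in WAPL and 3 and 1 in WAPL-NIPBL. Mpc1, a subunit of the mitochondrial pyruvate carrier, rose in all 4 degron lines, most in the PDS5AB line (0.73, adjusted p = 4.41e-08), then PDS5AB-NIPBL (0.56, adjusted p = 4.73e-05), WAPL (0.54, adjusted p = 1.19e-05) and WAPL-NIPBL (0.44, adjusted p = 0.00117). Pdk1, the kinase that inhibits pyruvate dehydrogenase, fell in PDS5AB-NIPBL (-0.87, adjusted p = 0.000264), TIR1 (-0.59, adjusted p = 0.0114) and PDS5AB (-0.50, adjusted p = 0.0121), and with the block in WAPL (-0.39, adjusted p = 2.07e-05) and WAPL-NIPBL (-0.49, adjusted p = 2.41e-06). Of 21 genes of pyruvate dehydrogenase and the citric acid cycle, 10 fell in PDS5AB, 7 in TIR1 and 1 in WAPL, and with the block 16 fell and 3 rose in PDS5AB, 3 fell and 4 rose in WAPL, 6 fell and 1 rose in PDS5AB-NIPBL and 3 fell in WAPL-NIPBL.

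Of 8 genes of the pentose phosphate pathway, which branches from glucose phosphate, H6pd, its enzyme in the endoplasmic reticulum, rose in all 4 degron lines, by 1.03 (adjusted p = 4.47e-11), 0.79 (adjusted p = 1.17e-08), 0.61 (adjusted p = 2.8e-06) and 0.47 (adjusted p = 0.000248) in PDS5AB, WAPL, PDS5AB-NIPBL and WAPL-NIPBL. It was the only gene of the 8 called higher in each of these lines, and 3 genes fell in PDS5AB and 1 each in WAPL and TIR1. With the block 3 rose and 3 fell in WAPL and 2 rose in PDS5AB-NIPBL. Of 5 gluconeogenic enzymes, 2 rose and 1 fell in PDS5AB, 2 rose and 2 fell in WAPL, 1 rose in PDS5AB-NIPBL and 2 fell in TIR1. Fbp1, which reverses the phosphofructokinase step, rose in PDS5AB from 1.67 ± 0.12 to 6.73 ± 0.97 CPM (SD, n = 3 each; 2.01, adjusted p = 1.53e-08), in WAPL (0.68, adjusted p = 0.0322) and in PDS5AB-NIPBL (0.86, adjusted p = 0.0443). Pck2, the mitochondrial enzyme that makes phosphoenolpyruvate, fell in TIR1 (-0.47, adjusted p = 0.00316), PDS5AB (-0.78, adjusted p = 1.98e-06) and WAPL (-0.97, adjusted p = 1.09e-07).

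Regulators of glycolytic transcription were read as well. Of 8 genes of the HIF pathway, 5 rose and 1 fell in PDS5AB and 1 rose each in WAPL and TIR1, while the block gave 6 higher and 1 lower in PDS5AB, 2 higher and 2 lower in WAPL, 3 higher and 1 lower in PDS5AB-NIPBL and 1 of each in WAPL-NIPBL. Hif1a rose in PDS5AB (0.29, adjusted p = 0.0025), and Epas1, which encodes another HIF alpha subunit, rose there (0.54, adjusted p = 0.000223) and in WAPL (1.23, adjusted p = 1e-09). Of 14 HIF targets outside glycolysis, 5 rose and 1 fell in PDS5AB, 2 rose in WAPL and 1 rose and 1 fell in PDS5AB-NIPBL, and the block gave 8 higher and 1 lower in PDS5AB, 3 higher and 1 lower in WAPL, 3 higher and 5 lower in PDS5AB-NIPBL and 2 higher and 3 lower in WAPL-NIPBL. Ddit4, an inhibitor of mTOR signalling, rose in PDS5AB (1.38, adjusted p = 2.02e-07), WAPL (0.60, adjusted p = 0.00777) and PDS5AB-NIPBL (0.50, adjusted p = 0.0436), and Adm, a secreted peptide, in PDS5AB (2.16, adjusted p = 4.93e-05) and WAPL (1.27, adjusted p = 0.00739). Of 4 genes of the MYC family, 4 fell in PDS5AB, and 1 rose and 2 fell in WAPL and in WAPL-NIPBL, and 1 rose and 1 fell in PDS5AB-NIPBL (1 and 2 with the block) and in TIR1. Mycn fell in all 4 degron lines, with -1.73 in PDS5AB (adjusted p = 2.06e-13), -0.89 in WAPL (adjusted p = 5.85e-08), -0.90 in PDS5AB-NIPBL (adjusted p = 2e-07) and -0.49 in WAPL-NIPBL (adjusted p = 0.00179). Myc fell in TIR1 (-0.83, adjusted p = 0.00749) and PDS5AB (-0.73, adjusted p = 0.00596) and rose in WAPL (0.69, adjusted p = 0.0153), PDS5AB-NIPBL (0.76, adjusted p = 0.00825) and WAPL-NIPBL (0.76, adjusted p = 0.0226).

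**Figure D5:**
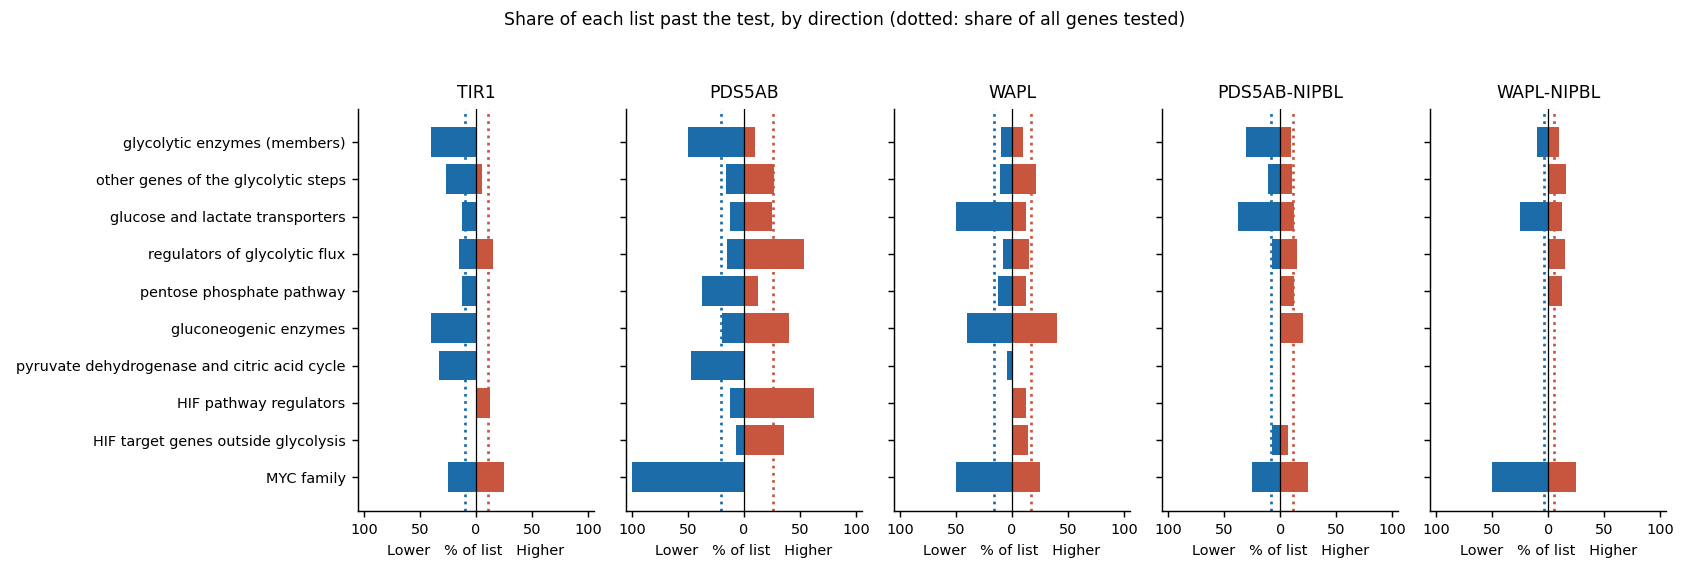
Share of each gene list called higher (to the right) or lower (to the left) after treatment in each line, in percent of its tested genes, with dotted lines at the share of all genes tested. The 10 members have 5 lower and 1 higher in PDS5AB and 4 lower in TIR1, and the MYC family has 4 of 4 lower in PDS5AB.

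Markers of cell state moved beside these results. Of 8 pluripotency markers, 8 fell in PDS5AB and 7 each in WAPL, PDS5AB-NIPBL and WAPL-NIPBL, against 2 higher and 2 lower in TIR1. The exception was Tfcp2l1, with 0.03 in WAPL (adjusted p = 0.747), -0.04 in WAPL-NIPBL (adjusted p = 0.825) and 0.15 in PDS5AB-NIPBL (adjusted p = 0.141, called higher with the block, adjusted p = 0.00151). Their summed level went from 5370 to 5550 CPM down to 3340 to 3490 CPM in PDS5AB, from 5590 to 5700 down to 4210 to 4310 CPM in WAPL, from 5910 to 6210 down to 4840 to 5200 CPM in PDS5AB-NIPBL and from 5620 to 5750 down to 4640 to 4750 CPM in WAPL-NIPBL. TIR1 libraries stayed within 5540 to 5900 CPM. The summed level of 6 primitive endoderm markers, of which 4 rose in PDS5AB and WAPL and 3 in the other degron lines, went from 24.2 to 26.9 CPM up to 58.5 to 71.9 CPM in PDS5AB and from 10 to 12.9 up to 37.3 to 52.7 CPM in WAPL, and that of 6 trophoblast markers went from 29.7 to 41 up to 95.5 to 121 CPM in PDS5AB and from 12.1 to 16.8 up to 24.6 to 32.2 CPM in WAPL, where 3 of 5 tested trophoblast markers rose and 1 fell. The trophoblast sum also went from 23.9 to 26.7 up to 42.6 to 51.2 CPM in PDS5AB-NIPBL, where 4 rose, and from 18.6 to 21.2 up to 29.9 to 32.4 CPM in WAPL-NIPBL, where 2 rose. The primitive endoderm sum there went from 10.4 to 12.8 up to 29.9 to 35.5 CPM and from 5.46 to 6.02 up to 13.7 to 15.4 CPM. In TIR1 the primitive endoderm sum went from 7.48 to 8.45 up to 9.82 to 11.1 CPM and the trophoblast sum from 20 to 23.2 up to 27.7 to 28.5 CPM. The summed level of 6 fibroblast markers went from 13.5 to 14.1 down to 4.38 to 5.37 CPM in WAPL, where 3 of 3 tested fell, and from 16.9 to 19 up to 19.4 to 21.9 CPM in PDS5AB, where 2 of 3 rose. Of these 3, 1 rose and 1 fell in PDS5AB-NIPBL and 1 fell each in WAPL-NIPBL and TIR1. The summed level of 5 neural markers went from 191 to 220 down to 150 to 168 CPM in TIR1, where 2 of 4 tested fell, and from 161 to 189 up to 214 to 249 CPM in PDS5AB-NIPBL, where 1 rose and 1 fell. Of these 4, 1 rose and 2 fell in PDS5AB, where the sum went from 131 to 139 up to 144 to 151 CPM, 1 rose and 1 fell in WAPL and 1 fell in WAPL-NIPBL. The sum of 5 mesoderm markers went from 21.3 to 33.8 down to 18 to 19.9 CPM in PDS5AB, where 1 rose, 2 fell and the median log2 fold change of the list was 0.44. It went from 15.4 to 18.4 up to 18.8 to 24.1 CPM in WAPL-NIPBL, where 1 rose and 1 fell. Of the mesoderm markers 1 rose and 2 fell in PDS5AB-NIPBL, 2 rose and 1 fell in WAPL and 1 rose in TIR1. Among defining markers of other cell types, Postn was at 0 in 17 libraries, Neurog2 in 15, Lum in 11, Col3a1 in 8, Elf5 in 4 and Mesp1 in 3. Others were detected in all 30 libraries, with Col1a1 at 2.33 to 8.32 CPM, Thy1 at 1.19 to 14.3 CPM, Nes at 50 to 125 CPM, Tubb3 at 40.2 to 144 CPM and Krt8 at 4.65 to 63.7 CPM. The part of these marker changes in the enzyme results was not tested. In bulk RNA, fewer cells of a type and less RNA per cell cannot be told apart.

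The genes whose group means followed the mean profile of the 10 members most closely were Pdk1 (Pearson's r = 0.915), Ciart (0.914), Tmem237 (0.913), Arhgdib (0.899) and Ccdc120 (0.899), over 10 group means and among 9408 genes with a mean of at least 10 CPM. Against the mean profile of the other 9 members, so that no gene was compared with itself, r was 0.772 for Pgk1, -0.393 for Hk1 and between 0.353 and 0.756 for the other 8. That profile was lowest in treated TIR1 (-0.32 on the log2 scale, centred over groups) and highest in untreated PDS5AB-NIPBL (0.20). The group means share control libraries and line differences, so these values are a description.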

How the data were processed

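The authors deposited a table of raw counts of fragments per gene, made with featureCounts 2.0.1 in paired mode on GENCODE vM23 gene models of GRCm38, per the file headers. The submitters' processing notes also name cutadapt and STAR 2.7.7a. The recorded command sets no strand, multi-mapping or overlap option, although the labels describe stranded libraries. Symbols were matched to 55154 identifiers (99.5%), and of 2 rows named Aldoa the one with more counts was used.

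A single model with 10 group means was fitted to the 30 libraries in edgeR 4.0.16 (R 4.3.3). Genes were kept by filterByExpr (minimum count 10), and TMM gave scaling factors between 0.95 and 1.13. edgeR's quasi-likelihood test, with 20 residual degrees of freedom, was adjusted by Benjamini-Hochberg over 19868 genes, and genes were called at an adjusted p under 0.05. The common biological coefficient of variation was 9.15%. Levels are TMM-scaled CPM, divided by exon length in kilobases where genes are compared. Copies were found with blastn 2.17.0. The code was tested on simulated data.

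Replicate numbers come from the labels. Deviations of same-numbered treated and untreated libraries correlated in the degron lines (r 0.109 to 0.333 over 12 pairs), so these numbers pair the samples, but not in TIR1 (-0.0102 to 0.0574 over 3 pairs). The fit with the replicate number as a block is given beside the treatment effects of the degron lines and the differences between them. For the TIR1 effect and comparisons with TIR1, its counts stand in the closing section. The other alternatives were size factors (RLE), total-count scaling, DESeq2 1.42.0, no filter, groups fitted alone, each library left out, and, chosen after seeing the data, the counts of copies added and the block in the degron lines only.

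The members and lists were chosen with earlier results of these data known. The genes named were all 10 members, Gapdh, Tpi1 and Pgam1, in each other list at most 4 called genes per comparison with the largest changes, and the 5 genes most like the members' mean profile. Some were named beside these to follow 1 gene over all lines, after their values were seen.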

Additional observations from a re-analysis of the deposited data

Results flagged for a closer look

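Of the members, 7 treatment effects differed from that of the TIR1 line by the test of the difference itself (edgeR, Benjamini-Hochberg over all genes). In PDS5AB, Hk1 differed by 0.42 on the log2 scale and Hk2 by -0.39. In WAPL, Hk1 differed by 0.36, Eno1 by 0.43 and Ldha by 0.44. Eno1 differed by 0.45 in PDS5AB-NIPBL and by 0.45 in WAPL-NIPBL. Of all genes, 26.3%, 20.7%, 10.1% and 7.04% differed in PDS5AB, WAPL, PDS5AB-NIPBL and WAPL-NIPBL. The differences of Hk1 and Hk2 in PDS5AB and of Hk1 and Ldha in WAPL were not called in every alternative fit. All 7 values rest on the same 6 TIR1 libraries, whose treated and untreated groups lie in different library sets, and Eno1 was lowest in the 3 treated TIR1 libraries.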

How the results depend on the processing

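Of 57 calls of a member in a comparison, 35 held under each of the scaling, filter, tool, block, group and leave-one-out settings, and 22 were lost under at least 1. The replicate block moved the number of members called to 8 in the TIR1 effect, 6 in WAPL, 9 in PDS5AB-NIPBL, 10 in WAPL-NIPBL, 8 in PDS5AB against TIR1 and in WAPL against TIR1, 5 and 3 in PDS5AB-NIPBL and WAPL-NIPBL against TIR1, 3 in PDS5AB-NIPBL against PDS5AB, 3 in WAPL-NIPBL against WAPL and 4 in PDS5AB against WAPL. All genes gave 35.6% for TIR1 and 40.2%, 35.4%, 25.1% and 22.3% for PDS5AB, WAPL, PDS5AB-NIPBL and WAPL-NIPBL against TIR1. An additive block gave 6 and 5 for untreated PDS5AB and PDS5AB-NIPBL and 8 and 6 for treated PDS5AB-NIPBL and WAPL-NIPBL against TIR1, beside 35.7%, 38.4%, 41.7% and 35.4%. With the block in the degron lines only, the counts were 8 for TIR1 (33.6% of all genes) and 7, 6, 3 and 3 for PDS5AB, WAPL, PDS5AB-NIPBL and WAPL-NIPBL against TIR1. TIR1 numbers did not pair its samples (1 of 3 best with its own number, against 12 of 12 in the degron lines), nor did numbers between lines, where 2 of 3 pairs of untreated PDS5AB with untreated TIR1 passed r = 0.1 (0.0709 to 0.207) and 0 of 3 in each other comparison. Fitting the compared groups alone gave 7 for TIR1, 1 for WAPL, 8 for treated WAPL-NIPBL against treated TIR1 and 2 for the PDS5AB-NIPBL effect against TIR1, beside 28.9%, 27.5%, 40.7% and 12.4% of the genes tested. Without the filter on low counts 7 were called in PDS5AB-NIPBL, WAPL-NIPBL, untreated PDS5AB and untreated PDS5AB-NIPBL, 4 in PDS5AB against TIR1, 3 in PDS5AB-NIPBL against TIR1 and 1 in PDS5AB against WAPL, beside 8.71%, 4.22%, 15%, 15.8%, 12.4%, 5.4% and 6.18% of 40589 genes. RLE size factors and DESeq2 each gave 2 in PDS5AB-NIPBL against TIR1, beside 10% and 13%. Scaling to the total count gave 1 in WAPL and 1 in PDS5AB-NIPBL against PDS5AB, beside 32.4% and 10.7%.

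That scaling moved the median of all genes to 0.19 in the PDS5AB effect from 0.04, to 0.18 from 0.04 in PDS5AB against TIR1 and to -0.12 from -0.02 in PDS5AB-NIPBL against PDS5AB, and it turned the PDS5AB effects of Aldoa to 0.034 and of Pgk1 to 0.0171. Without 1 library, Pfkl in PDS5AB-NIPBL turned to 0.00084 and 0.067 (range -0.273 to 0.067) and Pgk1 in WAPL to 0.0246 (range -0.256 to 0.0246). Leaving out 1 library at a time gave 3 to 4 members in TIR1, 4 to 6 in PDS5AB, 1 to 3 in WAPL, 2 to 6 in PDS5AB-NIPBL and 0 to 1 in WAPL-NIPBL, beside 13.1% to 16.4%, 39.5% to 42.2%, 25.7% to 31%, 13.9% to 16.3% and 5.6% to 6.51% of the genes tested. Untreated lines against TIR1 gave 4 to 5 (PDS5AB, 26.7% to 30.1%), 1 to 3 (WAPL, 7.81% to 12.9%), 3 to 6 (PDS5AB-NIPBL, 26.7% to 29.8%) and 2 to 4 (WAPL-NIPBL, 19.5% to 25.2%). Treated lines gave 5 to 7 (WAPL, 32.7% to 36.5%), 5 to 7 (PDS5AB-NIPBL, 30.8% to 32.9%) and 2 to 5 (WAPL-NIPBL, 24.3% to 26.9%). Differences from TIR1 gave 1 to 2 (PDS5AB, 21.2% to 26.1%), 1 to 4 (WAPL, 17% to 21.1%), 1 to 2 (PDS5AB-NIPBL, 7.25% to 9.34%) and 1 (WAPL-NIPBL, 4.56% to 6.4%), and PDS5AB-NIPBL against PDS5AB gave 0 to 1 (6.22% to 10.2%). The cause of these shifts was not tested. With 3 libraries a group and a common variation of 9.15%, the members with the widest spread, Pfkp, Pgk1 and Pfkl, had the largest standard errors.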
